A study of Mus musculus with 17 samples.

Results

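The replication-dependent histone genes code for the linker histone H1 and the core histones H2A, H2B, H3 and H4 that package newly copied DNA. Members were the rows of the deposited count table whose symbol starts with Hist1h, Hist2h, Hist3h or Hist4h and whose counts sum to at least 10 over the 17 libraries. Of 67 such symbols, 59 were members, out of 25899 symbols in the table: 6 H1, 13 H2A, 16 H2B, 12 H3 and 12 H4 genes. On GRCm38, 49 lie on chromosome 13, 8 on chromosome 3, 1 on chromosome 11 and 1 on chromosome 6. A total of 57 had enough counts to be tested. Hist1h2ba, with 22 counts, and Hist1h2aa, with 74 counts, were the members just inside the threshold and were not tested. Just outside it, Hist1h2bq, Hist2h2aa2 and Hist1h4m had 1 count each, and Hist3h2a, Hist1h2ao, Hist1h2ap, Hist1h2br and Hist2h2aa1 had 0.

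The libraries hold RNA made during a 15 min pulse of 5 mM ethynyl uridine, captured through that label, from E14tg2a mouse embryonic stem cells of 129SV background. All cells, controls included, lacked Erk1 and Erk2, carried a FLAG-ERK2 Q103A cDNA in their place (a kinase that PP1 can block) and expressed cRAF-ErT2, a fusion kinase that becomes active with 4-hydroxytamoxifen (4OHT) and signals through MEK to ERK. All had grown in serum and LIF with 2 µM Chir99021 and were then kept for 24 h in serum and LIF with 250 nM PD173074, an inhibitor of FGF receptors. The groups were DMSO (2 libraries, clones b and c), 4OHT (250 nM for 2 h), MEKi (1 µM of a MEK inhibitor), MEKi with 4OHT, PP1 (2 µM) and PP1 with 4OHT, with 3 libraries each from clones a, b and c. The code of the MEK inhibitor is not written alike in all of the submitters' texts, which leave unclear how long an inhibitor given alone was present. The replicates are clones, so the p-values measure the spread between clones. The DMSO group has 2 libraries and is shared by every comparison with DMSO.

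Cells make these histones mainly in S phase, when the genes are transcribed together in nuclear bodies organised by NPAT. Their messages carry no poly(A) tail: they end just after a short hairpin that the stem-loop binding protein SLBP recognises and that a U7 snRNA complex uses for 3′ cleavage. Because a label pulse counts new transcripts, these libraries read synthesis more directly than steady-state RNA would.

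The hairpin is what sets these genes apart from other messages, so examples are shown first. GENCODE M21 transcripts were searched for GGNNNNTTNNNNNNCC, on the transcript strand, where the first 6 bases can pair with the last 6 (G with T allowed). It was found in an annotated transcript of 38 of the 59 members (64.4%), against 411 of 21901 protein-coding genes (1.88%). A hairpin beyond the end of an annotated transcript could not be found. Among members without a match, some transcripts are short, such as those of Hist1h2bl and Hist1h2bn (381 bases each) and Hist1h4k (312 bases). Others are longer, such as those of Hist2h2be (2620 bases) and Hist1h2bc (1156 bases). Why a member had no match was not tested, so the 64.4% does not show that the other members lack the hairpin. The form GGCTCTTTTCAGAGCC was found in 21 members. Between the stop codon and the hairpin lay 21 to 54 bases, with a median of 30.5. Capitals mark the hairpin in 4 members described below, Hist1h1d (chr13:23555787-23555802, plus strand), Hist1h3d (chr13:23576244-23576259, plus strand), Hist1h2bk (chr13:22036300-22036315, plus strand) and Hist1h4i (chr13:22040966-22040981, minus strand).
Hist1h1d: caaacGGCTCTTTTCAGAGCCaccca
Hist1h3d: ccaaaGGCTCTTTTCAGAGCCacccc
Hist1h2bk: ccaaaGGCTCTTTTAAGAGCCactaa
Hist1h4i: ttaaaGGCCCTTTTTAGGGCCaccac

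The promoters of the types differ in their elements. RefSeq promoter windows on GRCm38.p6, 250 bases before to 50 bases after the start, matched 54 members, and each motif was searched on both strands. Shares are of genes with the motif in any of their windows. TATAAA was found for 61.1% of the 54 members against 15.7% of all 27025 RefSeq genes with a window, and CCAAT for 85.2% against 41.1%. The H1 box AAACACA, an element described for linker histone genes, was found for 5 of 6 H1 genes and 8.22% of all genes. The octamer ATTTGCAT, the site known for the POU factor OCT1, was found for 6 of 13 H2A and 7 of 14 H2B genes. It was in no H1, H3 or H4 window, and was found for 1.97% of all genes. CCAAT was found for every H1, H2A, H2B and H3 gene with a window and for 3 of 11 H4 genes. A match is a description of letters and not a shown binding site. The 140 bases upstream of the RefSeq start are printed for 5 genes of chromosome 13 to show these layouts, with the TATA, CCAAT, H1 box and octamer letters given above, on either strand, in capitals. They are Hist1h1b (chr13:21780626-21780765, minus strand), Hist1h1c (chr13:23738667-23738806, plus strand), Hist1h2bb (chr13:23746594-23746733, plus strand), Hist1h2bk (chr13:22035681-22035820, plus strand) and Hist1h2bn (chr13:21753936-21754075, plus strand).
Hist1h1b: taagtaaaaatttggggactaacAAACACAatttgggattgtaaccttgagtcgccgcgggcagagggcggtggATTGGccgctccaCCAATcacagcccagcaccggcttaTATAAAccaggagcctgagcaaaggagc
Hist1h1c: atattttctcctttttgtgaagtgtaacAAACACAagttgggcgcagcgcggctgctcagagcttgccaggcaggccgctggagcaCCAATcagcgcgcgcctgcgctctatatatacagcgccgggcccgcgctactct
Hist1h2bb: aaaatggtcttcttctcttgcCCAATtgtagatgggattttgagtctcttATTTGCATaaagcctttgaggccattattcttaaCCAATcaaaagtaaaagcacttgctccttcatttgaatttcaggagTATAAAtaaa
Hist1h2bk: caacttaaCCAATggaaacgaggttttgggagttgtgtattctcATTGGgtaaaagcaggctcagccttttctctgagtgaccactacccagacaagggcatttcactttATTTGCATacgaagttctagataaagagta
Hist1h2bn: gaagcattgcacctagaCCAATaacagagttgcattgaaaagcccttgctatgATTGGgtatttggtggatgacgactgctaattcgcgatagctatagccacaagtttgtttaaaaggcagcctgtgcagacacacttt
The H1 pair share the box AAACACA upstream of a CCAAT. Hist1h2bb and Hist1h2bk hold an octamer, and Hist1h2bn, another H2B gene, does not.

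Because histone genes are near copies, reads can be hard to place. Of each member's 50-base words, a median of 49.3% also occur in another GENCODE gene, and 27 members share at least 50% of theirs. The H1 genes are the exception with a median of 1.13%, and Hist1h1a and Hist1h1b share 0%. Of the 8 symbols under 10 counts, 7 share at least 88.7% of their words with another gene. How the submitters' counting treated reads that fit several places is not given in the sources used here, so the values of core genes with close copies, among them Hist1h2bk (74.2% shared), Hist1h2bn (86.4%), Hist1h2ad (67.1%) and Hist1h2ag (78.9%), are uncertain. Hist2h3c1 and Hist2h2bb share all of their words with the overlapping annotated genes Gm20634 and Gm20628, which have no row in the table. Only Hist1h1e and Hist1h2be overlap a gene that has its own row, each the other.

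Library totals ran from 5239690 to 11093390 counts, and 14 loci of very high counts took 9.38% to 42.0% of a library. Levels are given as CPM, counts scaled to a common library size, after TMM scaling, which sets that size by the bulk of genes. Mapk3 (Erk1), which is knocked out in these cells, was read at 7.59 to 17.9 CPM and so was not at 0. These counts cannot tell a disrupted locus from the intact gene. The 9 embryonic stem cell markers summed to 2893 to 3859 CPM in each library, while 8 fibroblast markers summed to 1.99 to 8.08 CPM and 7 germ cell markers to 6.49 to 16.2 CPM.

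At the level of the whole class, histone reads took a larger share of the library wherever an inhibitor was present. The 59 genes made up 0.0850% and 0.0906% of all counts in DMSO clones b and c, and 0.0908%, 0.0997% and 0.0773% in 4OHT clones a, b and c. In MEKi the shares were 0.150%, 0.164% and 0.117%, and in PP1 0.176%, 0.170% and 0.143%. With 4OHT added they were 0.125%, 0.142% and 0.135% for MEKi, and 0.114%, 0.129% and 0.121% for PP1. The 12 libraries with an inhibitor lay between 0.114% and 0.176% and did not overlap the 5 without one, which lay between 0.0773% and 0.0997%. S-phase genes summed to 3592 to 3731 CPM in DMSO, 3839 to 4537 in 4OHT, 3431 to 3926 in MEKi and 3603 to 3925 in PP1. A change in the share of cells in S phase and a change in histone transcription per cell cannot be told apart in these bulk libraries.

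**Figure D1:**
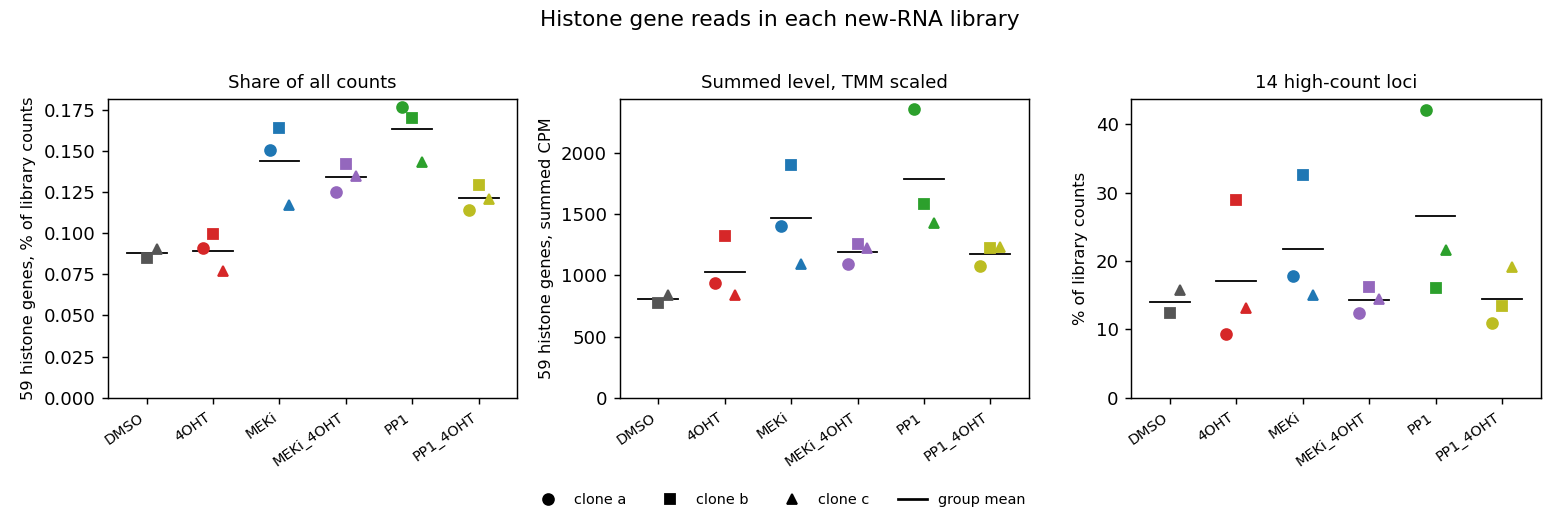
Histone reads in each of the 17 libraries (symbols are clones, lines are group means), as the percent of all library counts, as summed CPM after TMM scaling, and beside them the percent of counts in 14 high-count loci. The 12 libraries with an inhibitor sit at 0.114% to 0.176% of counts, above the 5 without one at 0.0773% to 0.0997%, and this gap closes in summed CPM, where 4OHT clone b reached 1320 CPM.

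After TMM scaling the order of the groups was less clear. Summed CPM was 776 and 842 in DMSO, 933, 1320 and 840 in 4OHT, 1407, 1903 and 1094 in MEKi and 2360, 1585 and 1424 in PP1. With 4OHT it was 1097, 1257 and 1226 for MEKi and 1074, 1228 and 1233 for PP1. MEKi and PP1 lay above DMSO in every library, but 4OHT clone b lay above MEKi clone c and above every library with an inhibitor and 4OHT. The libraries with the highest histone CPM of their group were also those with the largest share of counts in the 14 high-count loci, 28.9% in 4OHT clone b, 32.6% in MEKi clone b and 42.0% in PP1 clone a; the part of these loci in the result was not tested. Within clones, the ratio of summed CPM to DMSO was 2.45 (clone b) and 1.30 (clone c) for MEKi, 2.04 and 1.69 for PP1, and 1.70 and 0.998 for 4OHT.

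Among single genes, the most abundant per exon length were Hist2h2bb, an H2B gene, at a mean of 177 CPM per kb over all libraries, and the linker genes Hist1h1b and Hist1h1a at 148 and 140 CPM per kb. Hist1h1c followed at 66.9, and Hist1h2ak led the H2A genes at 64.0 CPM per kb. Hist1h3c (58.0) and Hist1h3e (53.7) were the leading H3 genes. Of the H4 genes, Hist1h4f (55.6) led, followed by Hist1h4a (47.5), Hist1h4k (41.8), Hist1h4h (36.0) and Hist1h4d (35.6). Hist1h1d had the highest CPM of all, a mean of 150, but its annotated transcript is 7425 bases long, which leaves 20.2 CPM per kb. Hist1h2ae (22.7), Hist1h2ab (29.6), Hist1h2bc (23.6), Hist1h2bg (40.2), Hist1h3g (39.4) and Hist1h4i (32.6 CPM per kb) complete the 3 genes of highest CPM in each type.

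An inhibitor alone was compared with DMSO to ask what follows when MEK or the ERK2 mutant is blocked in cells without 4OHT. Few genes changed, and most of those that rose were histone genes. With MEKi, 8 of 57 histone genes rose and 0 fell at an adjusted p under 0.05 (edgeR quasi-likelihood test), where 0.0805% of the 14907 genes tested, 12 genes, rose and 0.449% fell. With PP1, 10 histone genes rose and 0 fell, where again 0.0805%, 12 genes, rose and 0.161% fell. The log2 fold change was positive for 57 of 57 histone genes in either comparison, with a median of 0.84 for MEKi (0.46 to 1.63) and 1.10 for PP1 (0.72 to 1.54). Over all genes tested the medians were -0.01 and -0.02. Both comparisons use the same 2 DMSO libraries, so their likeness is not independent.

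The same held for every histone type as a description of medians: H1 0.85 and 1.08, H2A 0.91 and 1.20, H2B 0.83 and 1.06, H3 0.83 and 1.04, and H4 0.82 and 1.17 for MEKi and PP1. All MEKi libraries lay above both DMSO libraries for 49 of 57 genes, where 10.9% of all genes did so, and all PP1 libraries did for 55 of 57, where 11.6% of all genes did. At an unadjusted p under 0.05, 39 histone genes were higher with MEKi and 54 with PP1, and 0 were lower. Of all 14907 genes, 647 and 479 were higher and 1038 and 1132 lower at this threshold.

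The H3 gene Hist1h3d (chr13:23575763-23577011) had the smallest adjusted p of the histone genes with MEKi. It was at 11.1 and 8.98 CPM in DMSO, 28.01, 28.5 and 18.3 in MEKi and 31.1, 25.98 and 22.4 in PP1. Every inhibitor library was above both DMSO libraries. The log2 fold change was 1.29 ± 0.18 (SE, adjusted p = 0.000316) with MEKi and 1.37 ± 0.18 (adjusted p = 0.000452) with PP1.

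The linker gene Hist1h1b (chr13:21779883-21780625), which codes for a somatic H1, was at 75.3 and 84.5 CPM in DMSO, 139, 173 and 119.7 in MEKi and 162, 177 and 159.9 in PP1. The groups did not overlap. It rose by 0.84 ± 0.13 on the log2 scale with MEKi (adjusted p = 0.0016) and by 1.06 ± 0.13 with PP1 (adjusted p = 0.000394). Hist1h1d and Hist1h1a, other somatic linker genes, rose with MEKi (0.86 ± 0.18, adjusted p = 0.0471, and 0.83 ± 0.17, adjusted p = 0.0322) and with PP1 (1.08 ± 0.18, adjusted p = 0.0249, and 1.08 ± 0.17, adjusted p = 0.013).

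The H4 gene Hist1h4i (chr13:22040636-22041362) was at 13.9 and 13.1 CPM in DMSO, 27.1, 34.2 and 23.4 in MEKi and 32.7, 35.4 and 25.7 in PP1. It rose by 1.04 ± 0.17 (adjusted p = 0.00168) and 1.21 ± 0.17 (adjusted p = 0.000843). Another H4 gene, Hist1h4j, rose by 1.22 and 1.41. The others that rose were Hist2h3c1 (1.13) and Hist1h2ad (1.63) with MEKi, and Hist1h3g (1.03), Hist1h3h (1.01), Hist1h3a (1.23) and Hist1h2ae (1.43) with PP1, on the log2 scale.

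In the 4 lists of related genes, 0 genes passed the edgeR test in either comparison. The list of histone mRNA synthesis and 3′ processing also holds cell-cycle regulators such as Cdkn1a and E2f1. Lists overlap: it shares Slbp, Ccne1, Ccne2 and E2f1 with the S-phase list, and Mcm2 is in the chaperone and S-phase lists. Of 27 S-phase genes tested (among them the MCM helicase subunits and Pcna), 0 passed the test with MEKi or PP1, and the median log2 fold change was 0.01 in either. At an unadjusted p under 0.05, 0 were higher and 2 lower with MEKi, and 0 and 0 with PP1. Of 27 genes of histone mRNA synthesis and 3′ processing (Npat, Slbp and others), 17 chaperones and 11 replication-independent histones, 0 passed the test in either comparison, with medians of -0.08, -0.05 and 0.09 for MEKi and -0.11, 0.01 and 0.23 for PP1. At an unadjusted p under 0.05, 1 replication-independent histone was higher with MEKi and 4 with PP1, and 5 processing genes were lower in each, beside the counts over all genes given above. Chaperones had 2 lower in each. Of the 11 replication-independent histones, 6 with MEKi and 5 with PP1 lay above both DMSO libraries in every inhibitor library, where 10.9% and 11.6% of all genes did so. By DESeq2, 1 replication-independent histone passed as higher in each comparison and 0 genes of the other 3 lists passed.

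With the clone as a replicate block, the calls of Hist1h1d with MEKi (adjusted p = 0.0523, edgeR) and of Hist1h2ae (0.0698) and Hist1h3a (0.0583) with PP1 were lost. Under the 15 alternatives run for each, the call of Hist1h1d with MEKi was lost in 12, and that of Hist1h3d was lost in 1 with either inhibitor, without DMSO clone c. Hist1h4i lost its call in 2 with either inhibitor. With MEKi, the calls of Hist1h4j and Hist1h2ad were lost in 10 each and that of Hist2h3c1 in 7. With PP1, that of Hist1h2ae was lost in 11, Hist1h3a in 10, Hist1h4j in 7 and Hist1h1a in 5. The count of called histone genes rested on the control libraries. It was 2 with MEKi and 1 with PP1 without DMSO clone b, and 1 and 1 without DMSO clone c. With MEKi it was 3 without MEKi clone a and 4 without MEKi clone b. With PP1 it was 3 without PP1 clone a and 3 without PP1 clone b. The direction was steadier: at least 56 histone genes with MEKi and at least 55 with PP1 were positive under every alternative that was run. With library totals in place of TMM the count with MEKi was 1 and the median 0.71. With DESeq2 the counts were 14 and 28. The share of all genes that DESeq2 called is not given here, and the 0.0805% is from edgeR.

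**Figure D2:**
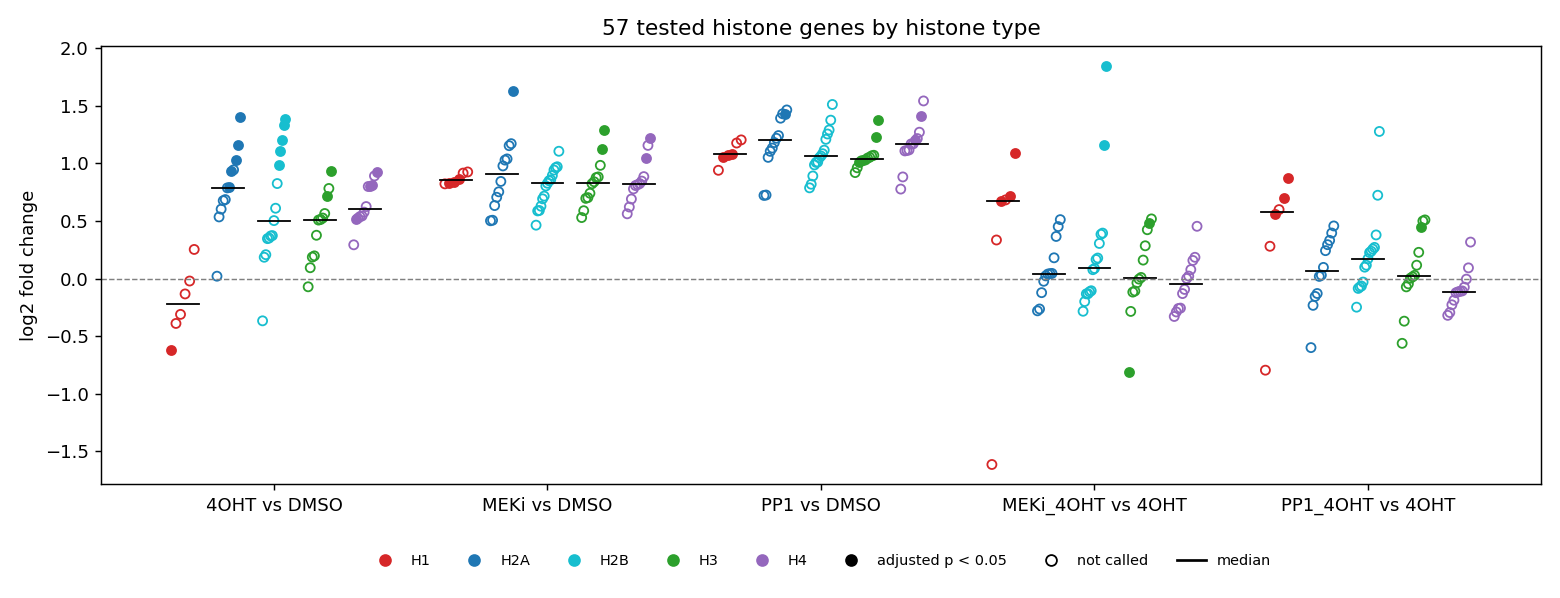
Log2 fold changes of the 57 tested histone genes (y axis) in 5 comparisons, by histone type (colour); filled points passed an adjusted p of 0.05 and bars are medians. All 57 points are above 0 for MEKi and PP1 against DMSO, while against 4OHT the H1 medians are 0.68 and 0.58 and the core types sit near 0.

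Switching on cRAF-ErT2 was compared with DMSO to ask how ERK activation changes new histone RNA. Of 51 core genes 16 rose and 0 fell, and of 6 H1 genes 0 rose and 1 fell; the difference between the types was not tested. Of all genes tested, 25.7% rose and 26.3% fell, so 16 of 57 histone genes higher was near the background, and the 1 lower was far under it. All 4OHT libraries lay above both DMSO libraries for 33 of 57 histone genes, where 32.3% of all genes did so. The median log2 fold change was 0.54 over all histone genes, -0.22 for H1, 0.79 for H2A, 0.50 for H2B, 0.51 for H3 and 0.60 for H4, against -0.02 over all genes.

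The H2B gene Hist1h2bk (chr13:22035870-22036345) was at 6.25 and 7.04 CPM in DMSO and 15.8, 22.9 and 12.3 in 4OHT, groups that did not overlap. It rose by 1.33 ± 0.33 (adjusted p = 0.00284). Hist1h2ab, an H2A gene, was at 6.01 and 6.20 in DMSO and at 14.6, 22.2 and 12.5 in 4OHT, a rise of 1.40 ± 0.41 (adjusted p = 0.0104). Hist1h2bb was at 10.4 and 10.3 in DMSO and 23.0, 30.9 and 18.6 in 4OHT (1.21 ± 0.39, adjusted p = 0.02). In each of these genes clone b was the highest 4OHT library. Hist1h2bj (1.39), Hist1h2ag (1.16) and Hist1h2bm (1.11) also rose. The call of Hist1h2bj was lost with the clone as a replicate block (adjusted p = 0.0664, edgeR). Under the 15 alternatives run for each, the call of Hist1h2bj was lost in 8, Hist1h2bb in 4 and Hist1h2ag in 3. That of Hist1h2ab was lost in 2, Hist1h2bm in 1 and Hist1h2bk in 0.

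Hist1h1b went the other way. It was at 75.3 and 84.5 CPM in DMSO and at 46.2, 61.9 and 49.1 in 4OHT, and fell by 0.62 ± 0.13 on the log2 scale (adjusted p = 0.000462). It was called in each of the 15 alternatives run for it, with values of -0.93 to -0.49.

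Related lists moved more in this comparison. Of 27 genes on the processing list 17 rose and 1 fell. Among those called higher were the cell-cycle regulator Cdkn1a, the CDK inhibitor p21, at 1.17, Srrt at 1.03, Upf1 at 1.02 and the transcription factor Yy1 at 0.91. Of 17 chaperones 11 rose and 1 fell, led by Atrx (1.25) and Rbbp7 (0.95). Of 27 S-phase genes 8 rose and 2 fell, with Pcna at 0.75 called higher and E2f1 (-0.47) called lower. E2f1 is also the gene of the processing list that fell, and Slbp and Ccne1 rose and are counted in both lists. Among replication-independent histones H3f3b (1.00) and Cenpa (0.84) rose and H2afy2 (-1.06) and H2afy (-0.83) fell, 3 higher and 2 lower of 11. More than 1 in 4 of all genes rose, so these counts stand beside a background of 25.7%.

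Leaving out a library changed the count: 4 histone genes rose without DMSO clone b, 7 without DMSO clone c and 8 without 4OHT clone b. With library totals only, 10 rose and 4 fell, and with totals that leave out the high-count loci 8 rose and 2 fell. The medians were then 0.24 and 0.30. Shares of all genes called under these settings are not given here.

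**Figure D3:**
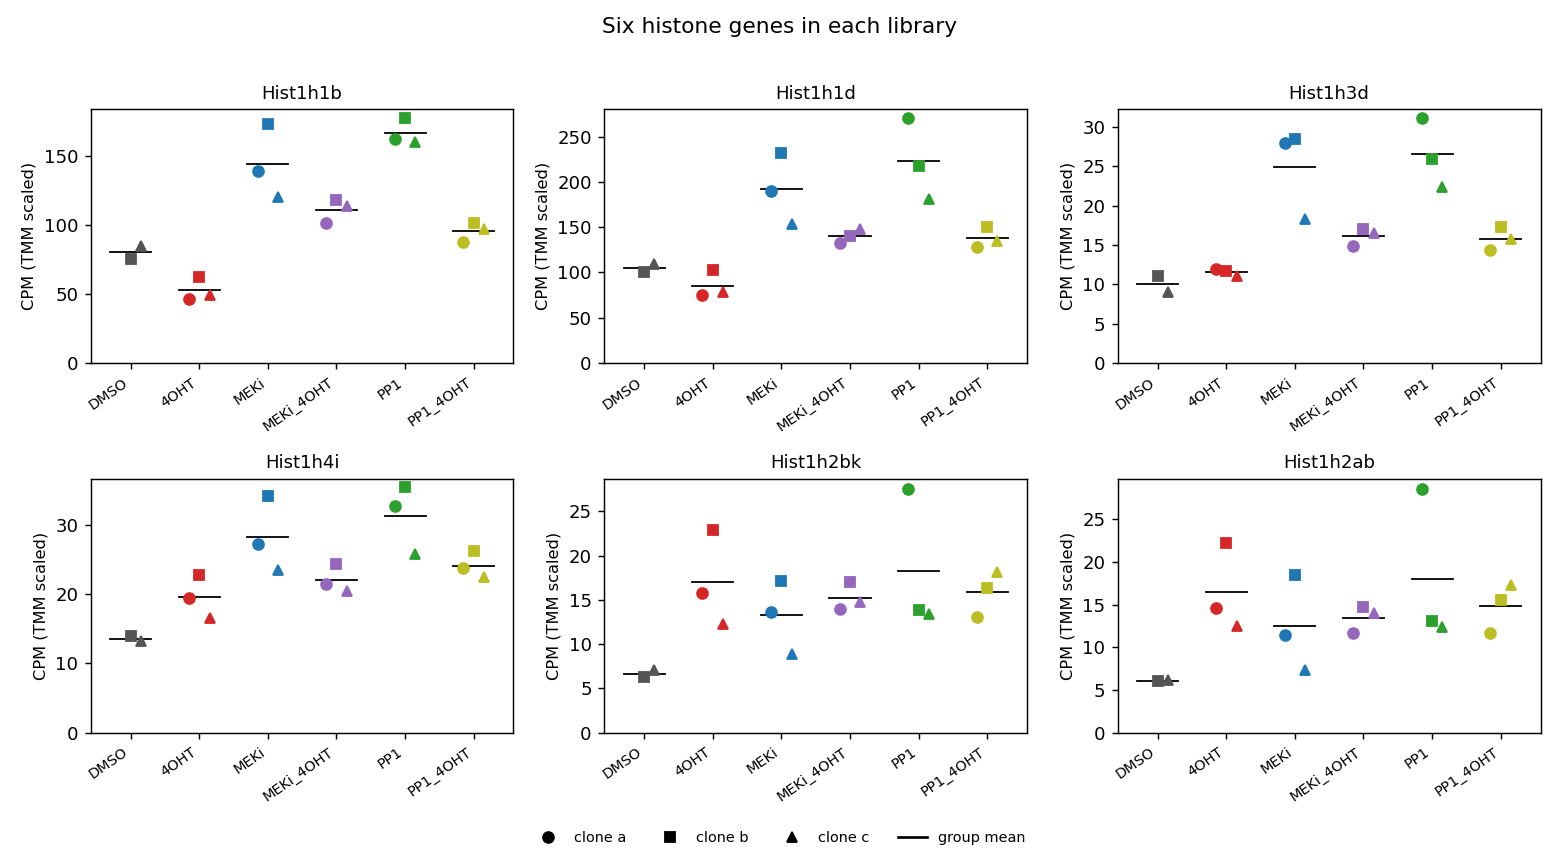
CPM after TMM scaling (y axis) of 6 histone genes in each library, by group, with clones as symbols and lines for group means. Hist1h1b is lowest in the 3 4OHT libraries (46.2 to 61.9 CPM), while Hist1h2bk and Hist1h2ab are lowest in the 2 DMSO libraries (6.25 and 7.04, and 6.01 and 6.20 CPM).

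Adding an inhibitor to 4OHT-treated cells was compared with 4OHT alone. Most histone genes did not pass the test, and the linker genes Hist1h1a, Hist1h1b and Hist1h1d rose with either inhibitor. With MEKi, 3 of 6 H1 genes rose and 0 fell, and 3 of 51 core genes rose and 1 fell. With PP1, 3 of 6 H1 genes rose and 1 of 51 core genes rose, with 0 lower. Of all genes, 28.4% rose and 28.4% fell with MEKi, and 21.4% rose and 20.5% fell with PP1, so over the whole class the counts of 6 higher and 1 lower, and of 4 and 0, were well under the background. The medians were 0.04 and 0.03, near those of all genes (0.06 and 0.01).

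The 3 linker genes were the same in either comparison. Hist1h1b, at 46.2, 61.9 and 49.1 CPM in 4OHT, was at 101, 118 and 114 with MEKi and 4OHT and at 87.5, 101 and 96.9 with PP1 and 4OHT. It rose by 1.09 ± 0.12 (adjusted p = 9.92e-08) and 0.87 ± 0.12 (adjusted p = 5.29e-06). Hist1h1d, at 75.4, 102 and 78.5 CPM in 4OHT, was at 132, 140.1 and 148 with MEKi and at 128, 149.8 and 135 with PP1, higher by 0.72 ± 0.16 (adjusted p = 0.00126) and 0.70 ± 0.16 (adjusted p = 0.00258). Hist1h1a rose by 0.67 ± 0.15 (adjusted p = 0.00115) and 0.56 ± 0.15 (adjusted p = 0.00717). The comparisons share the 4OHT libraries.

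Hist1h3d was the core gene called in both, at 11.9, 11.7 and 11.02 CPM in 4OHT, 14.8, 17.1 and 16.6 with MEKi and 14.4, 17.3 and 15.8 with PP1 (0.48 ± 0.17, adjusted p = 0.0162, and 0.45 ± 0.17, adjusted p = 0.0337). Its call with PP1 was lost in 8 of 16 alternatives: with DESeq2 size factors, with the DESeq2 test, and without any 1 of the 6 libraries compared. With MEKi its call was lost in 3 of 16. Hist2h3c2 was the core gene that fell with MEKi (-0.81 ± 0.30, adjusted p = 0.0264), a call lost in 6 of 16 alternatives. It was lost with library totals, with totals that leave out the high-count loci and with clones b and c only. It was also lost without 4OHT clone a, 4OHT clone c or MEKi with 4OHT clone a. The H2B genes Hist2h2be and Hist3h2ba also rose with MEKi, at low levels: Hist3h2ba was at 0.199, 1.03 and 0.469 CPM in 4OHT and 1.61, 1.80 and 2.16 with MEKi.

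How many histone genes pass depends on the scaling. With library totals only, 24 histone genes rose with MEKi (median 0.39) and 13 with PP1 (median 0.27), and 0 fell with MEKi. With totals that leave out the high-count loci, 17 rose with MEKi (median 0.34). The TMM factors were 0.974, 0.756 and 0.920 in 4OHT and 1.14, 1.13 and 1.10 in MEKi with 4OHT. In PP1 with 4OHT they were 1.06, 1.05 and 0.980. Leaving these factors out shifts all genes of a library alike. The share of all genes called without them is not given here, so these counts do not show a rise particular to histone genes. Hist1h1a, Hist1h1b and Hist1h1d with MEKi, and Hist1h1b and Hist1h1d with PP1, were called in all 16 alternatives run for each. For PP1 the count of 4 fell to 2 without 4OHT clone a, without 4OHT clone c or without PP1 with 4OHT clone b.

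**Figure D4:**
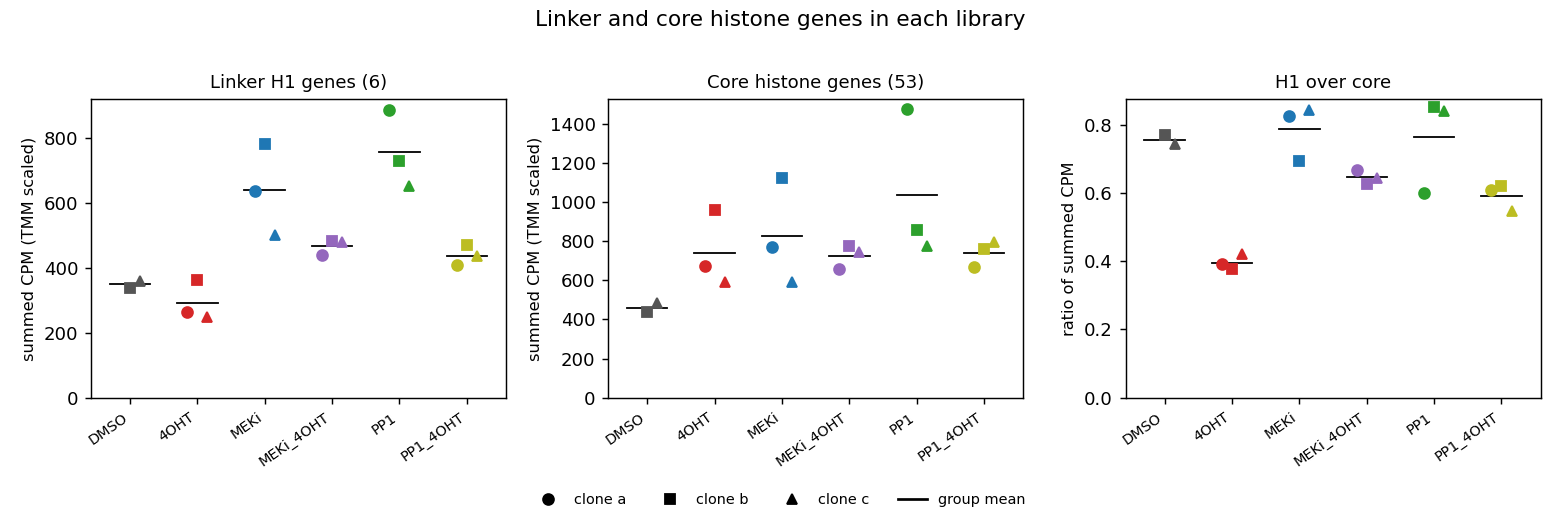
Summed CPM of the 6 linker and 53 core histone genes and their ratio in each library (y axes), by group, with clones as symbols and lines for group means. The ratio of H1 to core is 0.377 to 0.420 in the 4OHT libraries and 0.547 or more in all others.

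The ratio of summed H1 CPM to summed core CPM does not depend on the scaling of libraries, since both sums come from the same library. It was 0.770 and 0.743 in DMSO, 0.391, 0.377 and 0.420 in 4OHT, 0.826, 0.694 and 0.844 in MEKi, 0.668, 0.625 and 0.643 in MEKi with 4OHT, 0.601, 0.851 and 0.839 in PP1, and 0.610, 0.619 and 0.547 in PP1 with 4OHT. The 3 libraries with 4OHT and no inhibitor were the lowest and did not overlap any other. The ratio is given as a description, with no test.

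Within the inhibitor groups, 4OHT was compared with the inhibitor alone to ask what 4OHT does when the pathway is blocked. With PP1, 11 histone genes fell and 0 rose, where 12.8% of all genes fell and 18.4% rose, and 5 of the 11 were linker genes. The log2 fold changes were -0.81 ± 0.11 for Hist1h1b (adjusted p = 2.44e-05), -0.94 ± 0.22 for Hist1h1c (adjusted p = 0.00534), -0.97 ± 0.30 for Hist1h1e (adjusted p = 0.0267), -0.69 ± 0.16 for Hist1h1d (adjusted p = 0.00386) and -0.66 ± 0.15 for Hist1h1a (adjusted p = 0.00302). Hist1h4j and Hist2h2ac fell by 1.02 each, and Hist1h3d fell by 0.72. With clones b and c only the count was 3, and the calls of Hist1h1c, Hist1h1e, Hist1h4j and Hist2h2ac were lost. The ratio of summed histone CPM was 0.455 in clone a, 0.775 in clone b and 0.866 in clone c. The median over histone genes was -0.49 and over all genes 0.00. Hist1h1c was at 214, 142 and 139.8 CPM in PP1 and 81.9, 89.8 and 82.6 in PP1 with 4OHT.

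With MEKi, 4 histone genes fell and 0 rose, where 7.03% of all genes fell and 7.65% rose, so the count was near the background. They were Hist1h1b (-0.37), Hist1h3d (-0.61), Hist1h2bc (-0.54) and the low-level testis linker gene Hist1h1t (-2.18), whose counts sum to 87. At an unadjusted p under 0.05, 1 was higher and 10 lower, where 2268 of 14907 genes were higher and 1948 lower. The count was 0 without MEKi clone a, 2 without MEKi clone b, 10 without MEKi clone c, 1 without MEKi with 4OHT clone a or clone c and 2 without its clone b. MEKi clone a and MEKi with 4OHT clone b also had the highest floor of reads over long genes, 13.1 and 9.35 CPM per Mb at the 5th percentile of 1426 genes that span at least 150000 bases. Without these 2 libraries the count was 0; the part of this floor in the result was not tested.

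The interaction terms tested whether the 4OHT effect itself differed. With MEKi present, the 4OHT effect was lower for 11 histone genes and higher for 0, with a median difference of -0.82. Over all genes 19.3% were lower and 21.1% higher, so the count was near the background. With PP1 present it was lower for 20 and higher for 0, with a median of -1.05, where 11.4% of all genes were lower and 15.1% higher. All of the genes called in either were core genes: 11 of 51 and 20 of 51. Only 6 H1 genes were tested, and the difference between the types was not tested. The H1 medians were also negative, -0.20 with MEKi and -0.55 with PP1, with 5 and 6 of the 6 genes below 0. Between PP1 and MEKi the 4OHT effect differed for 0 histone genes by edgeR, where 4.86% of all genes were lower and 7.41% higher. At an unadjusted p under 0.05, 0 were higher and 1 lower, and DESeq2 also called 0. With the clone as a replicate block, 1 was lower. The median difference was -0.27.

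The H3 genes Hist2h3c2 and Hist2h3c1 showed the largest difference with MEKi among called genes whose log2 CPM averaged 1 or more. Hist2h3c1 was at 7.65 and 7.50 CPM in DMSO, 15.3, 11.2 and 16.5 in 4OHT, 21.2, 17.2 and 11.8 in MEKi and 11.6, 13.5 and 10.7 in MEKi with 4OHT. The difference in 4OHT effect was -1.41 ± 0.29 (adjusted p = 0.000418). With PP1, Hist1h4c had the largest by the same rule, -1.66 ± 0.45 (adjusted p = 0.0095): it was at 4.20 and 4.26 CPM in DMSO, 9.93, 7.76 and 6.21 in 4OHT, 19.4, 10.6 and 9.07 in PP1 and 6.71, 7.77 and 7.68 in PP1 with 4OHT.

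With the clone as a replicate block, the interaction calls of Hist1h2ae with MEKi (adjusted p = 0.0764, edgeR) and Hist1h2ab with PP1 (adjusted p = 0.0654) were lost. Each named call was run under 21 alternatives. With MEKi, those of Hist1h2ae and Hist1h3f were lost in 14 each, Hist1h3a in 6, Hist1h2ac in 5, Hist2h3c2 in 1 and Hist2h3c1 in 0. With PP1, that of Hist1h2ab was lost in 12, Hist1h2ag in 11, Hist1h2bk and Hist2h3c2 in 3 each, Hist1h4c in 2 and Hist2h2ac in 1. For MEKi the interaction count was 6 without DMSO clone b, DMSO clone c or 4OHT clone b, 5 without MEKi clone b, 19 without MEKi clone c and 7 without MEKi with 4OHT clone a. With library totals it was 1 lower and 1 higher. For PP1 it was 5 without DMSO clone b, 12 without DMSO clone c or 4OHT clone b, 11 without PP1 clone a, and 9 with library totals.

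The H2A and H2B genes offered a further description, noticed after their values were seen. Of those tested with a promoter window, 11 hold the octamer ATTTGCAT and 14 do not. With 4OHT against DMSO, 8 of the 11 rose, with a median log2 fold change of 0.99 (0.35 to 1.40), and 2 of the 14 rose, Hist1h2ag and Hist1h2bj, with a median of 0.57 (0.02 to 1.39). Hist1h2be (0.35), Hist2h2ac (0.60) and Hist2h2bb (0.83) hold the octamer and did not pass. Of all genes 25.7% rose. The ranges overlap, and no test was made. These calls rest on few libraries: without DMSO clone b, 4 histone genes of any type were called higher, without DMSO clone c 7, and without 4OHT clone b 8. With MEKi against DMSO the medians were 0.96 and 0.82, and with PP1 1.26 and 1.12.

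Of the printed promoters, Hist1h2bk and Hist1h2bb hold the octamer and rose with 4OHT. Hist1h2bn, without it, was at 5.76 and 6.85 CPM in DMSO and 6.55, 10.3 and 7.73 in 4OHT, and its difference of 0.35 ± 0.33 did not pass the test (adjusted p = 0.399). These genes share 50-base words with other H2B genes, as given above. They are examples only, and genes that went the other way are named with the octamer counts above.

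**Figure D5:**
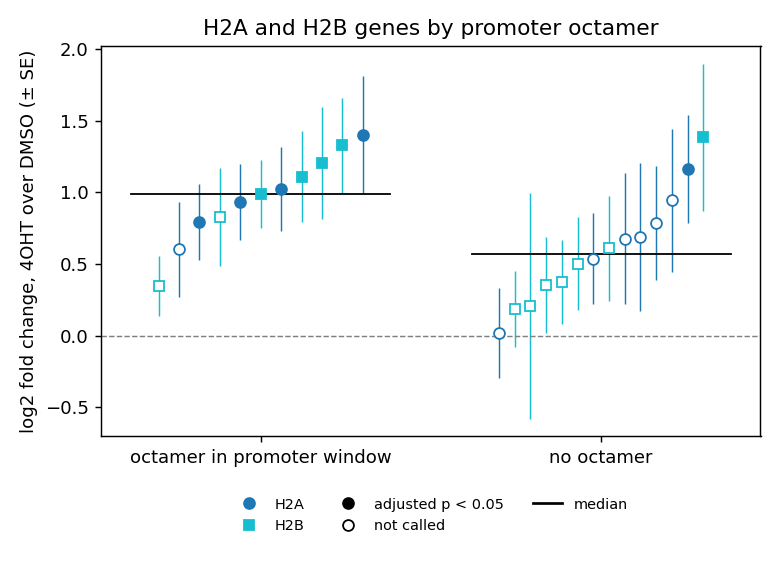
Log2 fold change of tested H2A and H2B genes, 4OHT over DMSO, with its SE (y axis), for 11 genes with and 14 without the octamer ATTTGCAT in the promoter window; filled points passed an adjusted p of 0.05 and bars are medians. The medians are 0.99 and 0.57 and the ranges overlap.

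Many of these genes are transcribed away from each other out of a shared promoter. Among the tested members with a promoter window, 7 pairs of an H2A and an H2B gene have starts 164 to 249 bases apart. Hist1h2bc and Hist2h2be have no such window, so pairs with them are not among the 7. With 4OHT, both genes rose in 3 of these 7 pairs, neither passed in 4, and in 0 only 1 gene passed, where 25.7% of all genes rose. Outside the 7, Hist1h2ac and Hist1h2bc also lie head to head (chr13:23683948 and chr13:23684199). There Hist1h2ac rose by 0.94 (adjusted p = 0.00484, edgeR) and Hist1h2bc did not pass. Of Hist2h2ac and Hist2h2be, head to head on chromosome 3, neither passed. The calls of Hist1h2ag and Hist1h2bj were lost without DMSO clone b, DMSO clone c or 4OHT clone b, and 4 histone genes in all were called higher without DMSO clone b. The pairs that rose were Hist1h2ah with Hist1h2bk (0.79 and 1.33), Hist1h2ag with Hist1h2bj (1.16 and 1.39) and Hist1h2ae with Hist1h2bg (1.03 and 0.99). Of these, the first and the last hold the octamer in the shared window, as 2 of the 7 pairs do. The pair of Hist1h2ak and Hist1h2bn (0.68 and 0.35) did not pass. Genes of a pair share their promoter sequence and are not independent of each other.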

How the data were processed

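New RNA was measured in 17 libraries. The authors deposited 1 table of raw counts per gene symbol; per the submitters' processing notes, STAR and featureCounts were used with mm10. For versions, annotation, strand and the handling of reads that fit several places, the sources used here give nothing. Counts were fitted with edgeR 4.0.16 (quasi-likelihood test, TMM, filterByExpr, 1 term per group, R 4.3.3) over all 14907 genes that passed the filter, with 11 residual degrees of freedom and Benjamini-Hochberg adjustment; genes were called at an adjusted p under 0.05. SEs are approximate (the log2 fold change over the root of the F statistic). The fit was tested on simulated data. Named were up to 6 called members of largest log2 fold change per direction and comparison whose log2 CPM averaged 1 or more, the 3 of highest mean CPM per type, and those at the count threshold; others named were chosen after their values were seen, as were the lists' leading genes by size. High-count loci are 14 rows of at least 1000 mean counts whose share follows Cdk8 (r of at least 0.95). Members and lists were chosen with earlier results of these data known. Clone letters pair libraries across groups, since each letter is 1 clone: same-clone libraries' deviations correlated at a mean r of 0.086 over 40 pairs, and other pairs at -0.043 over 80. Alternatives used DESeq2 1.42.0, other scalings, filters, a clone block and omitted libraries. The values of 2 genes outside the histone members are not reported here.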

Additional observations from a re-analysis of the deposited data

Results flagged for a closer look

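The 4OHT effect differed when an inhibitor was present, by an interaction term in the edgeR fit. With MEKi it was lower for 11 of 57 histone genes, near the 19.3% of all genes that were lower, of which the largest at a log2 CPM averaging 1 or more were Hist2h3c2 (-1.63), Hist2h3c1 (-1.41), Hist1h2ac (-0.99), Hist1h3a (-0.99), Hist1h2ae (-0.97) and Hist1h3f (-0.95, differences of log2 fold changes). With PP1 it was lower for 20 of 57, where 11.4% of all genes were lower and 15.1% higher, of which the largest by the same rule were Hist1h4c (-1.66), Hist2h2ac (-1.62), Hist1h2ab (-1.59), Hist2h3c2 (-1.48), Hist1h2bk (-1.46) and Hist1h2ag (-1.40). Several of these calls were lost under many alternatives, as given above for each gene. Both interactions use the DMSO and 4OHT libraries. The groups hold 2 or 3 libraries, so single libraries were not screened as outliers.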

How the results depend on the processing

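Of 825 values of the 49 named gene results under alternatives, 604 stayed on their side of the threshold, 221 lost the call and 0 changed sign. The main counts of called members moved by more than 1.5 times under these alternatives. The cause was not tested. Shares of all genes called under the alternatives are not given here, so the counts below have no background beside them. Library totals only gave 10 higher and 4 lower (4OHT against DMSO), 0 lower (MEKi with 4OHT against MEKi), 1 higher (MEKi against DMSO), 24 higher and 0 lower (MEKi with 4OHT against 4OHT), 13 higher (PP1 with 4OHT against 4OHT), 1 higher and 1 lower (MEKi interaction) and 9 lower (PP1 interaction). Totals without the high-count loci gave, in the same order, 8 and 2, 2, 4, and 17 and 0, with 1 higher and 3 lower (MEKi interaction), 11 lower (PP1 interaction) and 1 lower between PP1 and MEKi. No filter gave 2 lower for MEKi with 4OHT against MEKi. DESeq2 gave 14 and 28 higher for MEKi and PP1 against DMSO, and 17 and 33 lower for the interactions. Fitting only the groups compared gave 2 lower for 4OHT against DMSO, 2 lower for MEKi with 4OHT against MEKi, and 2 and 4 higher for MEKi and PP1 against DMSO. With clones b and c only (added after seeing the data) the counts were 0 lower for MEKi with 4OHT against MEKi, 3 lower for PP1 with 4OHT against PP1, 4 and 3 higher for MEKi and PP1 against DMSO, 0 lower for MEKi with 4OHT against 4OHT and 7 lower for the PP1 interaction. Without MEKi clone a and MEKi with 4OHT clone b (also added) they were 0 lower for MEKi with 4OHT against MEKi, and 3 and 6 higher for MEKi and PP1 against DMSO.

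With the clone as a replicate block, 1 histone gene differed in 4OHT effect between PP1 and MEKi, in place of 0. The block gave 15 higher for 4OHT, 7 for MEKi and 13 for PP1 against DMSO, and moved no other count by more than 1.5 times. Of the named genes, 6 calls were lost under the block, given beside their results.

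Leaving out 1 library in turn gave, for 4OHT against DMSO, 4 to 17 higher and 1 to 1 lower; for MEKi with 4OHT against MEKi, 0 to 10 lower; for PP1 with 4OHT against PP1, 9 to 16 lower; for MEKi against DMSO, 1 to 6 higher; for PP1 against DMSO, 1 to 13 higher; for MEKi with 4OHT against 4OHT, 4 to 7 higher and 0 to 1 lower; for PP1 with 4OHT against 4OHT, 2 to 6 higher; and 5 to 19, 5 to 28 and 0 to 1 lower for the MEKi and PP1 interactions and between PP1 and MEKi. With 1 DMSO library left, it is assumed to vary like the other groups.

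Medians near 0 changed sign. For PP1 with 4OHT against 4OHT the median was -2e-04 with DESeq2 size factors, -0.0147 with the DESeq2 test and -0.1771 to 0.2628 when 1 library was left out (lowest without 4OHT clone c). For MEKi with 4OHT against 4OHT it was -0.1297 to 0.2719 when 1 library was left out, with -0.0217 without 4OHT clone a, -0.1297 without 4OHT clone c and -0.037 without MEKi with 4OHT clone b, and -0.0078 without the 2 libraries of highest floor. For MEKi with 4OHT against MEKi it was -0.4359 to 0.0735, the latter without MEKi clone b, and between PP1 and MEKi 0.0028 with clones b and c only. Hist1h2aa, with 74 counts, and Hist1h2ba, with 22, were too shallow to test.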
